A study of Arabidopsis thaliana with 4 samples.

Results

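Whole Arabidopsis thaliana seedlings kept for 5 h on paper that had been soaked in 300 mM NaCl were compared with untreated seedlings (0 h) on 2 of the 4 arrays of the series. On each array the Cy5 channel held RNA of a 5 h sample and the Cy3 channel held RNA of the 0 h sample, and the 2 samples at 5 h are biological replicates per the series' design text. Both arrays whose labels pair control with 5 h of NaCl were taken, and all 20333 genes that could be measured are described. The 2 remaining arrays set 2 h of the same salt against 0 h, and enter here only where the times are compared.

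All seedlings, at 5 h, at 2 h and at 0 h, were wild type of the Columbia ecotype, were 14 days old and had grown on sucrose-containing agar medium under short days. The labels give neither a transfer to paper without salt nor the hour of collection, so salt, handling and time of day cannot be told apart. The labels give the 0 h RNA no replicate number, and it was counted as a single control sample on all 4 arrays, so the tests leave out the spread between control samples. Every array carried the treated RNA in Cy5, so a dye preference of a probe cannot be told apart from a change. In whole seedlings, fewer cells of a type and less RNA per cell cannot be told apart either.

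A concentrated salt solution pulls water out of plant cells before sodium and chloride build up inside them. Plants answer the loss of water with the hormone abscisic acid, whose receptors block protein phosphatases of type 2C and so release kinases that switch on stress genes. They also slow growth, and young leaves and root tips are where cells divide and walls stretch.

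The change at 5 h is given throughout as the log2 ratio of 5 h over 0 h, so that 1 is a 2-fold rise and -1 a 2-fold fall. Signals are normalized intensities of the channel that holds the named RNA, on a linear scale, with array 1 before array 2. They are set against each other only within a probe, since probes differ in brightness, apart from the summed signals of tissue markers, in which bright probes weigh most. A gene was called where limma's moderated test gave a Benjamini-Hochberg adjusted p of at most 0.05 over all genes. All genes given a change below were called unless stated otherwise, with standard errors between 0.0337 and 0.146 and limma's adjusted p between 4.09e-11 and 0.000116 (n = 2 arrays at 5 h).

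The 5 h arrays were bright and close to each other. The median Cy5 signal was 342 and 351 before background correction, over a background of 52.5, and the median Cy3 signal was 256 and 271. Between 70.53% and 72.18% of spots were well above background in each channel, and 0 were saturated. Over all genes the SD of the difference between the arrays' log2 ratios was 0.073, and the median standard error of a gene's change was 0.0382. That spread was about as small as the spread between spots of 1 probe on 1 array, with a median SD of 0.0527 over 53 spots of 11 probes. The p-values may therefore measure mostly technical spread, and the size of a change is given weight here over its p.

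Most measured genes were called at 5 h, many with small changes. Of 20333 genes, 17873 (87.9%) were called, 8994 (44.2%) higher and 8879 (43.7%) lower. Of the called genes 9445 changed by less than 1.5-fold. The middle of the distribution stood at 0.00, with 5% of genes below -1.16 and 5% above 1.91. At 2-fold or more, 2773 genes (13.6%) were higher and 1486 (7.31%) lower. Large changes leaned further to rises, with 939 genes (4.62%) at least 4-fold higher against 168 (0.826%) lower. At 8-fold, 314 genes (1.54%) were higher and 22 (0.108%) lower. Rises made up 65.1% of the 2-fold changes, a share that came to 50.5% with the scanner software's own log ratio and 70.2% with the arrays scaled to a common spread. The counts of large changes depended on the processing. Genes at least 2-fold lower came to 3106 with the scanner software's ratio, 2673 in the deposited series table and 913 with scaled arrays. In the same order, those at least 8-fold higher came to 620, 673 and 154, and those at least 8-fold lower to 131, 110 and 7.

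**Figure D1:**
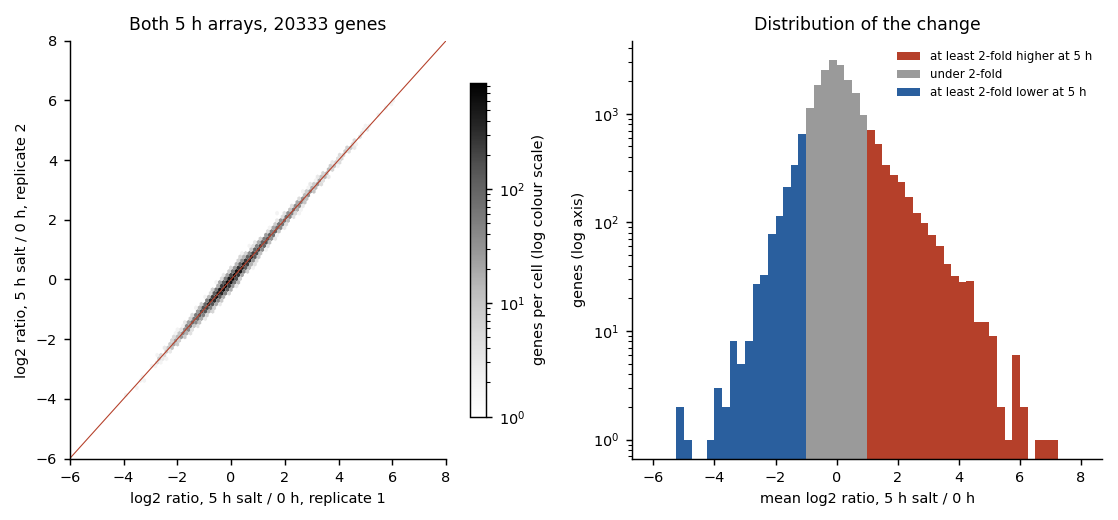
Left, log2 ratio of 5 h over 0 h of each gene on the first 5 h array against the second; right, the number of genes (log axis) in bins of the mean log2 ratio, coloured where it reaches 2-fold. The points lie along the diagonal, with an SD of the difference of 0.073, and the upper tail (2773 genes at least 2-fold higher) is heavier than the lower (1486).

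The 15 largest rises were of genes with varied roles. CYP94B3, which oxidises the active form of jasmonate, had signals of 32255 and 32037 at 5 h, against 230.3 and 215.2 at 0 h, a change of 7.17. RNS1, a ribonuclease that recovers phosphate from RNA, had 25208 and 25047 at 5 h, against 435.8 and 440.6 at 0 h (5.84). GH3.3, which joins auxin to amino acids, had 31572 and 34159 at 5 h, against 576.8 and 616.9 at 0 h (5.78). In each of these the 5 h signals were far above those of the control, and the 2 arrays hardly differed.

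GLYI7, of the glyoxalase I family that clears methylglyoxal, had signals of 28264 and 28980.4 at 5 h, against 447.6 and 472.7 at 0 h (5.96). NATA1, an acetyltransferase that acts on ornithine, had 7528 and 7491 at 5 h, against 162.3 and 168.6 at 0 h (5.51). EDL3, an F-box protein of abscisic acid signalling, had 22229.6 and 21827 at 5 h, against 398.8 and 400.3 at 0 h (5.79). AT5G52050, a MATE transporter gene, reached 14201 and 14129 at 5 h, against 316.1 and 314.8 at 0 h (5.49). The remaining genes among the 15 largest rises were AT2G38240, RAP2.6, ELI3-2, RD20, UGT76E12, HSFA6B, RRTF1 and MAPKKK18, between 5.23 and 6.94.

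The 15 largest falls included an expansin and 2 seed storage proteins. EXPA8, an expansin, had signals of 397.1 and 399.1 at 5 h, against 13868 and 14824 at 0 h, and fell by 5.17 on the log2 scale. Its 3 kept probes ranged from -5.17 to -2.13. GASA6, a gibberellin-regulated peptide, had 1829.7 and 1827 at 5 h, against 26659 and 27556 at 0 h (-3.89). ADS1, at locus AT1G06080, a fatty acid desaturase, had 665.9 and 687.4 at 5 h, against 6923 and 7340.4 at 0 h (-3.40). These 3 genes gave bright signals at 0 h, so that their falls do not rest on signals near background. The cruciferins CRU3 and CRA1, storage proteins laid down in the embryo, stood at -5.20 and -4.84, and another probe of CRU3 gave -2.22.

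XTH31, a xyloglucan-modifying enzyme, had 2160.2 and 2205 at 5 h, against 21717 and 21565 at 0 h (-3.31). PME5, a pectin methylesterase, had 331.0 and 320.2 at 5 h, against 3359.7 and 3299.7 at 0 h (-3.35). PCC1, a small protein of defence and flowering, differed more between the arrays, with 132.1 and 172.5 at 5 h, against 2489 and 2606 at 0 h (-4.08). For DELTA-VPE, a vacuolar processing enzyme of the seed coat, and for AT1G13650 the 5 h signal was not well above background, and the falls were at least 10.5-fold and at least 11.3-fold. A second probe of DELTA-VPE gave -0.92. Such a bound sets the mean of the bright group against the lowest signal well above background. Where the dim signal was higher than that lowest signal it was used instead, and the bound then lies at or close to the measured ratio. The 15 were completed by AT5G35660, BGLU19, AT5G55410, AT5G03350 and AT4G07820, between -3.92 and -3.35.

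**Figure D2:**
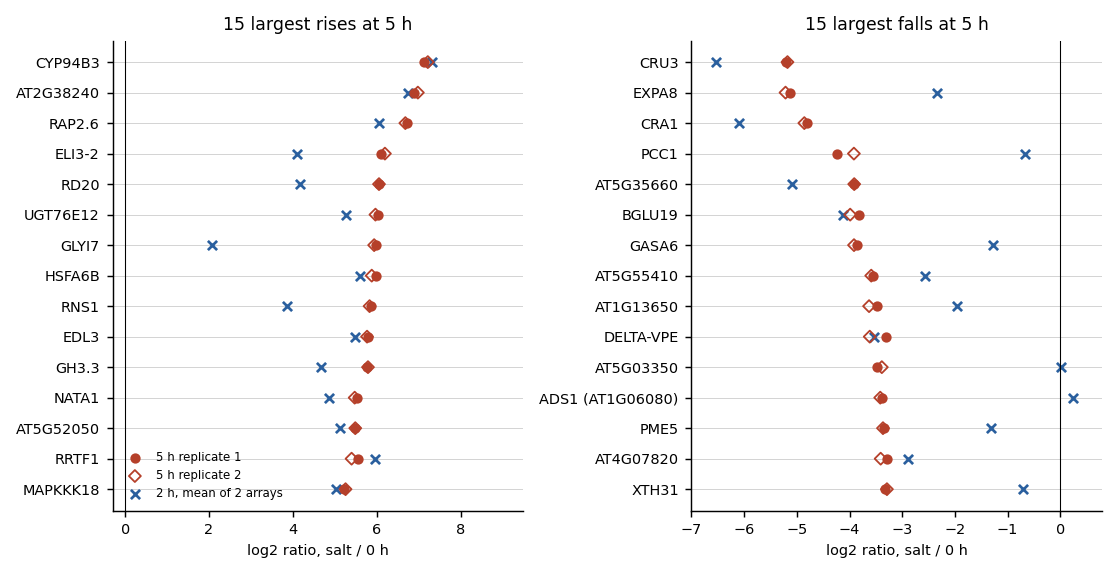
Log2 ratio over 0 h of the 15 largest rises (left) and the 15 largest falls (right), with 1 point for each 5 h array and a cross for the mean of the 2 h arrays. The 2 points of a gene at 5 h nearly coincide for most genes, PCC1 being the widest apart of the falls (-4.24 and -3.92), and GLYI7 lies at 5.96 at 5 h against 2.08 at 2 h.

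To describe the change across the genome, 74 lists of genes with a known role and at least 1 measured member were counted. The median change lay above that of all genes in 42 of the 74 lists. Counts run over measured members, since the other genes of a list had no probe that passed the filter. Lists were matched by gene symbol, synonym or name pattern and need not hold a whole family, so counts describe the listed genes only. Further lists, of microRNA precursors and of genes encoded in the plastid and mitochondrial genomes, had 0 measured members. Beside each list the shares of all genes apply, 13.6% for 2-fold rises and 7.31% for 2-fold falls. For members called at any size the shares of all genes are 44.2% higher and 43.7% lower. Counts near these shares do not set a list apart.

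**Figure D3:**
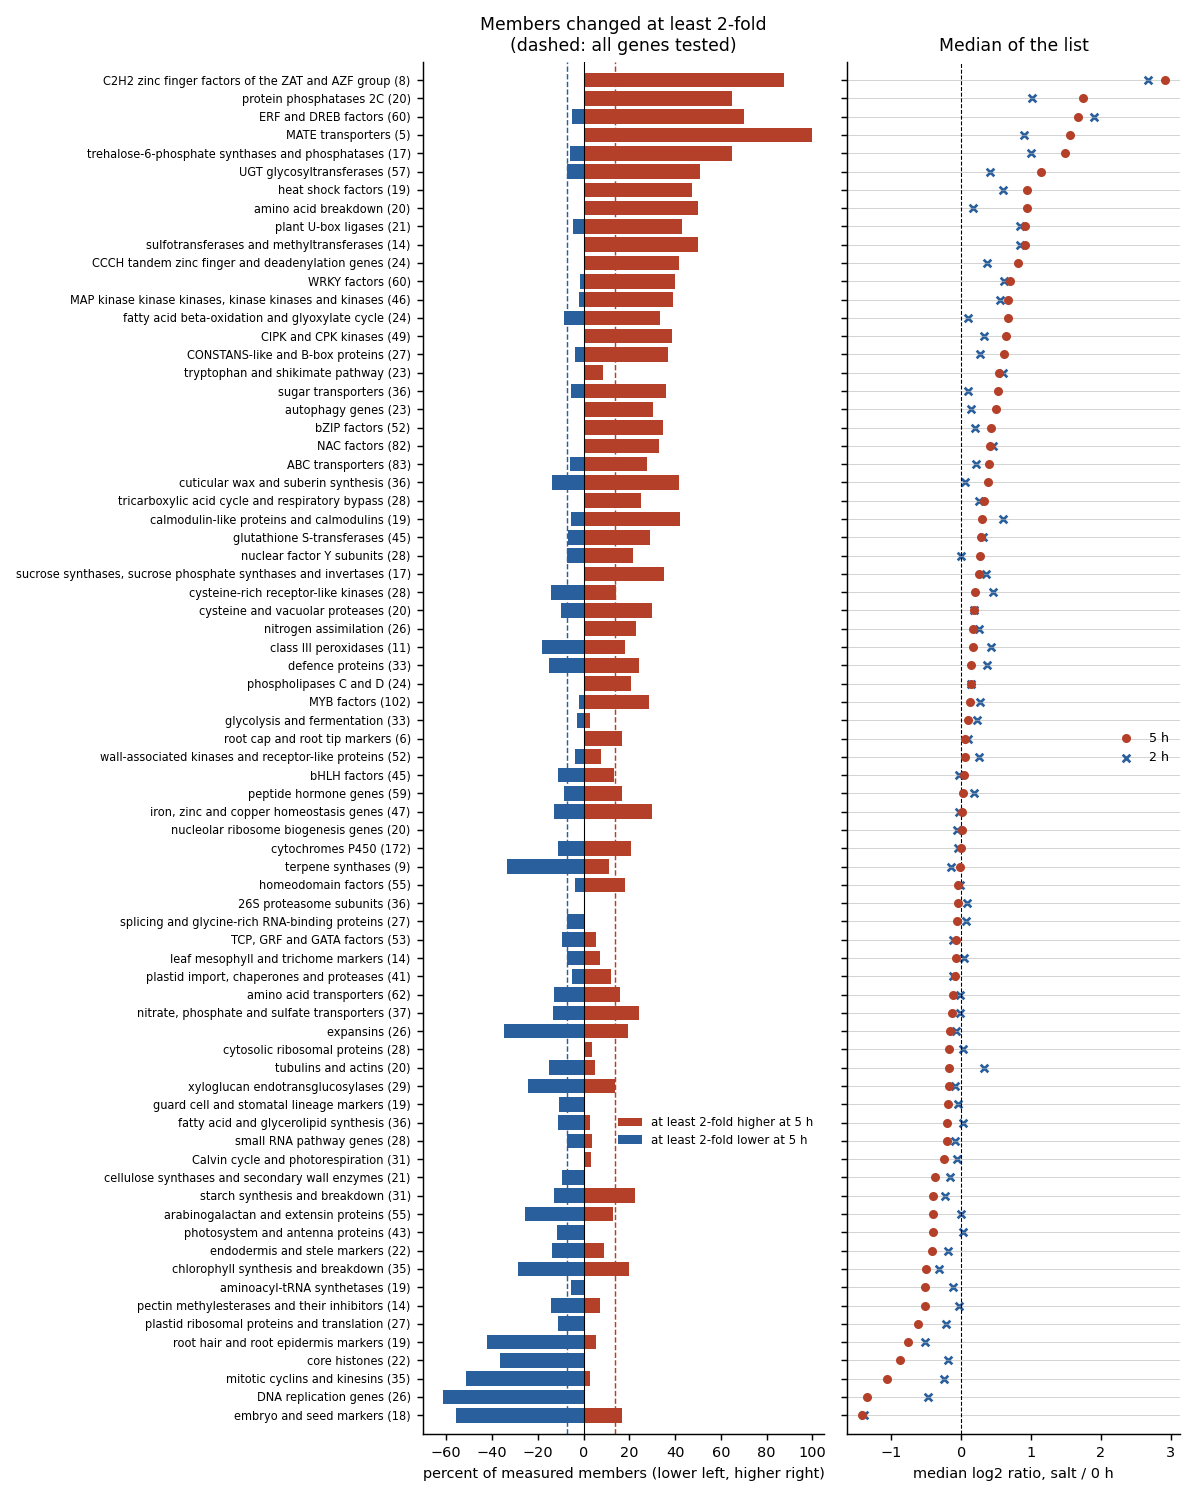
Left, percent of each list's measured members (number in brackets) at least 2-fold higher (to the right) and lower (to the left) at 5 h over 0 h, with dashed lines at the shares of all genes (13.6% and 7.31%); right, each list's median log2 ratio at 5 h (points) and at 2 h (crosses). DNA replication genes lie near the low end with a median of -1.35 at 5 h, and the ZAT zinc finger proteins at the high end with 2.92.

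The machinery that copies and divides the genome was lower at 5 h. Of 26 measured DNA replication genes, from 28 listed, 22 were called lower and 2 higher, 16 fell at least 2-fold and 0 rose as far (median -1.35). Of 35 mitotic cyclins, kinesins and regulators, from 36 listed, 30 were called lower and 4 higher, and 18 fell at least 2-fold against 1 that rose (median -1.06). Of 22 core histones, from 23 listed, 20 were called lower, 8 of them by 2-fold or more, and 2 higher (median -0.88). At 2 h the medians of the 3 lists were -0.48, -0.25 and -0.19. The 2 times share the 0 h sample, so the times are compared below through their direct difference.

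Named members show how far this went. TSO2, a subunit of the ribonucleotide reductase that makes DNA building blocks, had signals of 4074 and 4105 at 5 h, against 17227 and 18217 at 0 h (-2.12). PRL, the MCM7 subunit of the replicative helicase, had 1231 and 1154 at 5 h, against 4412 and 4222 at 0 h (-1.86), and its second probe gave -0.70. MCM2, of the same helicase, fell by 1.79 on the log2 scale on the probe used, and its second probe gave -0.40. CDC20.1, which activates the ubiquitin ligase that ends mitosis, had 247.0 and 244.3 at 5 h, against 1460.2 and 1580.4 at 0 h (-2.63). HIK, a kinesin of cytokinesis, stood at -2.42, CYCA1;1, a cyclin of the A type, at -2.17, and SYP111, the KNOLLE syntaxin of the growing cell plate, at -2.01. On both arrays each of these was lower at 5 h than at 0 h. Both arrays shared a direction in all 4259 genes changed at least 2-fold, so this does not set these genes apart.

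Histones and the cytoskeleton followed with smaller changes. HTA11, a histone of the H2A.Z type, had 1438 and 1512 at 5 h, against 5396 and 5729 at 0 h (-1.92). HTB2, an H2B histone, stood at -1.60, HTA6, an H2A histone, at -1.57, and GAMMA-H2AX, an H2A.X histone of DNA repair, at -1.33. Histone genes are close copies of each other, so a probe may read more than its own gene. Of 20 tubulin and actin genes, from 24 listed, 11 were called lower and 5 higher (median -0.18). TUB5, a beta-tubulin, fell by 1.77 on the log2 scale, and TUA1, an alpha-tubulin known from pollen, rose by 1.51.

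Cell wall genes were mixed, with strong falls among those of growing walls. Expansins loosen the wall, and of 26 measured, from 37 listed, 9 fell and 5 rose at least 2-fold (median -0.16). EXPA11 had signals of 1224 and 1379.9 at 5 h, against 7062 and 7791 at 0 h (-2.51), and EXPA2 stood at -2.69. The expansin-like gene EXLA2 rose by 2.45. The list therefore held changes in both directions, and a median near 0.

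Among 29 xyloglucan endotransglucosylases, which cut and rejoin wall xyloglucan, 7 fell and 4 rose at least 2-fold, with XTH7 at -2.15 and XTH9 at -2.05. Of 14 pectin methylesterases and their inhibitors, 9 were called lower, and PME61 fell by 1.84. Arabinogalactan and extensin proteins, which lie in the wall and at the cell surface, numbered 55 measured, of which 36 were called lower and 14 fell at least 2-fold (median -0.41). AGP3 fell by 2.18, while AGP1 had 61737 and 61559 at 5 h, against 5205 and 5079.6 at 0 h (3.58). AGP2 rose by 3.08. Cellulose synthases and secondary wall genes moved less, with 16 of 21 called lower but only FLA11 (-1.32) and FLA12 (-1.26), surface proteins of woody walls, beyond 2-fold.

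Genes of translation in the plastid were lower. All but 1 of the 27 measured plastid ribosomal proteins were called lower, and 3 fell at least 2-fold (median -0.63). PRPL11 had signals of 5927 and 5923 at 5 h, against 12709 and 13064 at 0 h (-1.12), EMB3113 stood at -1.06 and PSRP2 at -1.04. Of 19 aminoacyl-tRNA synthetases, which load transfer RNAs, 15 were called lower (median -0.52), led by EMB2369 at -1.02, EDD1 at -0.96 and OVA6 at -0.90. These are small, even shifts, and most members lay within 2-fold.

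Cytosolic ribosomal proteins had a median of -0.17, with 19 of 28 called lower and 4 higher. RPL24A fell by 0.84. SAG24, a ribosomal protein gene of the RPL10 family, went the other way, with 77748 and 80899.8 at 5 h, against 13621 and 14234 at 0 h (2.51). Nucleolar genes of ribosome assembly centred on 0, with 9 of 20 called higher and 5 lower, and the sign of their median, 0.01, turned with the scaling. FIB2, a fibrillarin of the nucleolus, fell by 0.77.

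Genes of photosynthesis fell slightly and broadly. Of 43 photosystem and antenna genes 35 were called lower, 5 of them by 2-fold or more, and 4 higher (median -0.41, against 0.03 at 2 h). LHCB2.3, an antenna protein of photosystem II, had signals of 17171 and 17559 at 5 h, against 72614 and 74342 at 0 h (-2.08). PSAH2, a subunit of photosystem I, stood at -1.28, LHB1B1 at -1.21 and LHCB3 at -1.16. Antenna genes are near-identical copies, so their probes may share signal.

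The Calvin cycle, which fixes carbon dioxide, and photorespiration had 17 of 31 members called lower and 10 higher (median -0.24). Its 2 bisphosphatases SBPASE (-0.85) and HCEF1 (-0.99) and GAPA-2, a glyceraldehyde phosphate dehydrogenase (-0.92), had the largest falls of the list, each under 2-fold. RSW10, a ribose phosphate isomerase, rose by 1.16.

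Chlorophyll genes changed in both directions. Of 35 members, 10 fell and 7 rose at least 2-fold (median -0.50). CHLI2, a subunit of the enzyme that puts magnesium into the ring, had 1324 and 1216 at 5 h, against 6261 and 6007 at 0 h (-2.27). NYE1, which strips magnesium at the start of breakdown, had 4693 and 4749 at 5 h, against 837.4 and 865.7 at 0 h (2.47), and its relative AT4G11910 rose by 2.12. NYC1, which reduces chlorophyll b, had 43296 and 44213 at 5 h, against 11206 and 11520.1 at 0 h (1.95). These 3 breakdown genes lay among the largest changes of the list and were all higher at 5 h.

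Genes of plastid upkeep changed 2-fold less often than all genes, though a few members rose strongly. Of 41 genes of plastid import, chaperones, proteases and sigma factors, 13 were called higher and 21 lower (median -0.09). At least 2-fold, 5 rose (12.2%) and 2 fell (4.88%), both below the 13.6% and 7.31% of all genes. SIGE, a sigma factor of plastid RNA polymerase, had 10996 and 10640.0 at 5 h, against 2195 and 2049.6 at 0 h (2.35). FTSH8, a thylakoid protease, had 28194 and 28259.5 at 5 h, against 6566 and 6765 at 0 h (2.08). ERD1, a regulatory subunit of the Clp protease known from drought and senescence, rose by 2.61, and Tic20-IV, of the inner import channel, by 1.66.

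Autophagy genes were mostly higher at 5 h, and proteasome genes moved little. Of 23 autophagy genes, which deliver cell contents to the vacuole, 19 were called higher and 1 lower, and 7 rose at least 2-fold (median 0.50). ATG8H, a protein of the autophagosome membrane, had signals of 11832 and 12364 at 5 h, against 1299 and 1470.1 at 0 h (3.13). G18F, the ATG18F gene, rose by 2.14, ATG18H by 1.81 and ATG8E by 1.75. Of 36 subunits of the 26S proteasome, 0 changed 2-fold in either direction, with 17 called lower and 10 called higher. The proteasome median was -0.05, and its sign turned with the scaling.

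Enzymes that mark or cut proteins were higher in many cases. Of 21 plant U-box ligases, 19 were called higher, 9 by 2-fold or more (median 0.91). PUB19, which acts on abscisic acid and drought responses, had 11392 and 10933 at 5 h, against 341.4 and 309.2 at 0 h (5.1), and PUB18 rose by 3.92. Among 20 cysteine and vacuolar proteases 6 rose and 2 fell at least 2-fold. RD19, a papain-type protease first known from drought, had 118225 and 107312 at 5 h, against 24112 and 19158 at 0 h (2.39), and RD21A, of the same kind, rose by 2.15.

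Genes that make membrane lipids were more often lower than higher. Of 36 genes of fatty acid and glycerolipid synthesis, 20 were called lower and 9 higher (median -0.20). MGDC, a galactolipid synthase known from phosphate starvation, fell by 1.77, and SQD2, of sulfolipid synthesis, by 1.1. ACC1, the cytosolic acetyl-CoA carboxylase that feeds very long fatty acids, rose by 1.36.

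Genes that break fatty acids down were mostly higher. Of 24 genes of beta-oxidation and the glyoxylate cycle, 16 were called higher, 8 by 2-fold or more, and 4 lower (median 0.67). ACX1, an acyl-CoA oxidase that also serves jasmonate synthesis, had signals of 82638 and 79159 at 5 h, against 6931 and 6335 at 0 h (3.61). ACX2 rose by 2.08. ICL, the isocitrate lyase of the seedling's glyoxylate cycle, had 1122 and 1134 at 5 h, against 3473 and 3902 at 0 h (-1.71).

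Genes of the plant surface included strong rises. Of 36 genes of cuticular wax and suberin, 15 rose and 5 fell at least 2-fold (median 0.38). CER3, which makes wax alkanes, had 50333 and 50431 at 5 h, against 5492 and 5507 at 0 h (3.20). KCS1, which elongates fatty acids, had 36047 and 36450.2 at 5 h, against 4344 and 4328 at 0 h (3.06), and KCS2, of suberin, stood at 2.84. MYB96, an activator of wax genes under drought, had 20573 and 19473 at 5 h, against 1760.4 and 1623 at 0 h (3.57).

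Starch genes were more often lower than higher. Of 31 measured, 20 were called lower and 9 higher (median -0.40), 7 rose and 4 fell at least 2-fold, and the largest changes were rises of beta-amylases. BAM1 (AT3G23920), a plastid beta-amylase of stress and guard cells, had signals of 116636 and 110313 at 5 h, against 4829.9 and 4236 at 0 h (4.65). BMY3, a further beta-amylase, rose by 3.01. DPE1, which rearranges glucose chains in the plastid, fell by 1.84 on the probe used, and its second probe gave -0.62.

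Of 17 sucrose genes 6 rose and 0 fell at least 2-fold. SUS1, a sucrose synthase that splits sucrose, had 22813 and 24461 at 5 h, against 1009 and 1013 at 0 h (4.55). SPS2F, a sucrose phosphate synthase, rose by 2.64. SUS3, another sucrose synthase, rose by 1.87 at 5 h and stood at -0.81 at 2 h.

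Of 36 sugar transporters, 13 rose and 2 fell at least 2-fold (median 0.53). MSS1, the hexose importer also called STP13, had 16677 and 15438 at 5 h, against 1548 and 1465 at 0 h (3.41), and the sugar exporters SWEET2 and SWEET4 rose by 2.53 and 2.41. Of 17 genes of trehalose phosphate, a sugar signal, 11 rose and 1 fell at least 2-fold (median 1.48). TPS11 had 36475 and 37669 at 5 h, against 4801 and 4835 at 0 h (2.94), TPPG rose by 2.94, TPPF by 2.30 and TPS10 by 2.12.

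Glycolysis as a whole moved little, with 1 of 33 genes up and 1 down by 2-fold and a median of 0.10 whose sign turned with the scaling. The gene that rose was ADH1, the alcohol dehydrogenase, with 57415 and 57135 at 5 h, against 2814 and 2764 at 0 h (4.36). The one that fell was FBA5, an aldolase (-1.11). Of 28 genes of the tricarboxylic acid cycle and the respiratory bypass 7 were at least 2-fold higher and 0 as far lower. AOX1A, the alternative oxidase, had 36179.6 and 37268 at 5 h, against 7453 and 7694 at 0 h (2.28), UCP5, a mitochondrial dicarboxylate carrier, rose by 2.57, and NDB2, an external NADH dehydrogenase, by 2.34. SDH1-1, of succinate dehydrogenase, rose by 1.87 on the probe used, and its second probe gave 0.33.

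Genes that break down amino acids were mostly higher. Of 20 genes, 15 were called higher and 4 lower, with 10 rises and 0 falls of at least 2-fold (median 0.95). BCAT-2, a branched-chain aminotransferase, had signals of 11015 and 11222 at 5 h, against 1016 and 1043 at 0 h (3.43). AT4G33150, the lysine-degrading enzyme of 2 functions, had 25782 and 25962 at 5 h, against 2858 and 2800.1 at 0 h (3.19). TAT3 and TAT7, tyrosine aminotransferases, rose by 4.11 and 3.11. At 2 h BCAT-2 stood at 0.25, AT4G33150 at 0.50 and TAT7 at 1.02. TAT3 stood at 5.35 at 2 h, above its value at 5 h, and its second probe gave 2.14 at 5 h.

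Nitrogen handling held fewer but clear rises. Of 26 genes of nitrogen assimilation 6 rose and 0 fell at least 2-fold (median 0.17). ASP3, an aspartate aminotransferase, had 20613 and 19791 at 5 h, against 4117 and 3937 at 0 h (2.33), and ASN1, the asparagine synthetase of starved tissue, rose by 2.13. NIA2, a nitrate reductase, rose by 1.96, and POP2, which breaks down GABA, by 1.94. Tryptophan and shikimate genes showed small changes, with 19 of 23 called higher but 2 past 2-fold (median 0.54), among them CYP79B3 of indole glucosinolate synthesis (1.21).

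Transport of nutrients showed changes in both directions. Of 62 amino acid transporters 10 rose and 8 fell at least 2-fold (median -0.12). ProT3, a proline transporter, had 3610.1 and 3576 at 5 h, against 413.8 and 415.6 at 0 h (3.12). AAT1, a cationic amino acid transporter, rose by 2.42 at 5 h and stood at -0.25 at 2 h, and AAP1 rose by 1.8. Of 37 nitrate, phosphate and sulfate transporters 9 rose and 5 fell at least 2-fold. NRT1.8, which takes nitrate out of the xylem, had 2159.9 and 2362 at 5 h, against 174.7 and 182.7 at 0 h (3.66), NRT1.7 of nitrate movement in the phloem rose by 2.96, and PHT1;1, a phosphate importer, fell by 2.17.

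Metal genes split the same way, with 14 rises and 6 falls of at least 2-fold among 47 (median 0.01, with a sign that turned with the scaling). FER1, an iron-storing ferritin, had 58750.4 and 58118 at 5 h, against 10915 and 10571 at 0 h (2.44), and NRAMP3, a vacuolar metal exporter, rose by 2.34. FRO6, a ferric reductase of leaves, had 5446 and 5519 at 5 h, against 26900.0 and 27488 at 0 h (-2.31), and NAS1, of the chelator nicotianamine, fell by 2.17. Of 83 ABC transporters 23 rose and 5 fell at least 2-fold (median 0.40), led by ABCG1, of suberin, at 4.13, ABCG40, an abscisic acid importer, at 3.34 and ABCG22 at 3.01. All 5 measured MATE transporters, of 7 listed, rose at least 2-fold, which includes AT5G52050 above, but this short list need not stand for the family.

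Enzymes that attach sugars to hormones and secondary products were often higher. Of 57 UGT glycosyltransferases, 29 rose and 4 fell at least 2-fold, and 22 rose at least 4-fold (median 1.14). UGT74F2, which attaches glucose to salicylic acid, had signals of 55334 and 55461 at 5 h, against 3340.0 and 3534 at 0 h (4.01). UGT85A1, which acts on cytokinins, rose by 4.48 and UGT87A2 by 3.71. Several UGT genes sit in tandem copies, so single members are uncertain where probes may share sequence.

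Cytochromes P450, which oxidise hormones and defence compounds, had 78 of 172 called higher and 77 lower, close to the 44.2% and 43.7% of all genes. By 2-fold or more 36 rose (20.9%) and 19 fell (11%), both above the 13.6% and 7.31% of all genes. Among all genes too, rises made up 65.1% of the 2-fold changes. CYP81D8 had 12221 and 12859 at 5 h, against 400.2 and 394.4 at 0 h (4.98), CYP94C1, of jasmonate turnover, rose by 3.87 and CYP715A1 by 3.48. Of 45 glutathione S-transferases 13 rose and 3 fell at least 2-fold (median 0.29), with GSTU4 at 3.50 and ERD9 at 3.29. Of 14 sulfotransferases and methyltransferases 7 rose and 0 fell as far (median 0.91). FAMT, which methylates farnesoic acid, stood at 4.67, ST2A, a sulfotransferase of hydroxyjasmonate, at 3.94 and SOT12, which acts on salicylic acid and steroids, at 3.74.

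Among 33 measured defence proteins of 101 listed 8 rose and 5 fell at least 2-fold. NSP5, a nitrile specifier of glucosinolate breakdown, had 309931 and 311911 at 5 h, against 17659 and 19068 at 0 h (4.08). PDF2.1, a defensin-like protein, had 797.7 and 838.2 at 5 h, against 5999 and 6224 at 0 h (-2.90). Terpene genes were few, with 9 measured of 14. MRN1, of marneral synthesis in roots, fell by 2.85, THAS1, of thalianol synthesis, by 2.07, and TPS04, of geranyllinalool synthesis, was at least 3.33-fold higher at 5 h, its 0 h signal not being well above background.

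**Figure D4:**
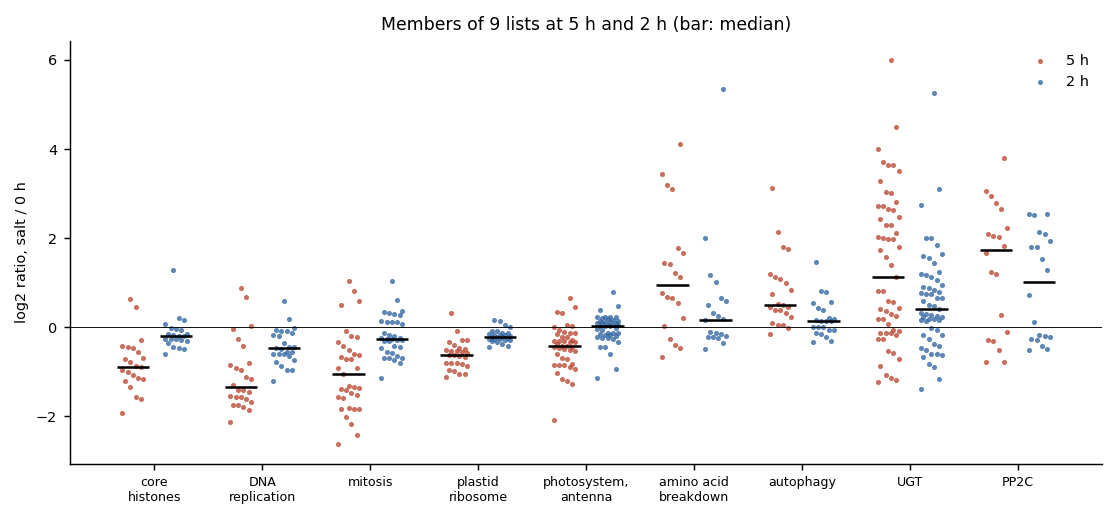
Log2 ratio over 0 h of every measured member of 9 lists at 5 h (left of each pair) and at 2 h (right), with 1 point a gene and a bar at the median. At 5 h replication genes, mitotic genes and core histones lie mostly below 0 (medians -1.35, -1.06 and -0.88), and UGT glycosyltransferases spread from -1.23 to 6.0.

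Protein kinases and calcium sensors were mostly higher. Of 46 MAP kinase genes, 18 rose and 1 fell at least 2-fold (median 0.68), with MAPKKK21 at 4.39 and MAPKKK18, which acts in abscisic acid signalling, at 5.23. Of 49 calcium-dependent and CIPK kinases 19 rose and 0 fell as far (median 0.64), with CIPK9, which acts in potassium balance, at 2.56. Of 19 calmodulin-like genes 8 rose and 1 fell. CML37 had 3646 and 3502 at 5 h, against 183.1 and 182.1 at 0 h (4.29), and CML38 stood at 4.25. TCH3, the touch-induced calmodulin relative, rose by 2.72.

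Phosphatases of type 2C include members that switch abscisic acid signalling off. Of the 20 listed, 13 rose and 0 fell at least 2-fold (median 1.75). HAI1 had 27545 and 23406 at 5 h, against 1913 and 1753 at 0 h (3.79), PP2CA rose by 2.95 and HAB1 by 2.80. HAI2 rose by 3.07 with a standard error of 0.146, wider than most, its 5 h signals being 2552 and 1868.

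Receptor kinase and peptide lists held changes in both directions, beside 13.6% rises and 7.31% falls of all genes. Of 28 cysteine-rich receptor-like kinases 4 rose and 4 fell at least 2-fold (14.3% each). ARCK1, which lowers abscisic acid responses, stood at 3.65 and CRK25 at -2.05. Of 52 wall-associated kinases and receptor-like proteins 4 rose (7.69%) and 2 fell (3.85%) as far, both below the shares of all genes. Of 59 peptide hormone genes 10 rose (16.9%) and 5 fell (8.47%), close to those shares. PSY1, a growth peptide, stood at 2.63, PSK2 at 2.54 and RGF9, a root meristem growth factor, at -2.69. The median of the peptide list, 0.02, turned its sign with the scaling.

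Transcription factors of the stress families were more often 2-fold higher than lower. Of 60 ERF genes, which bind ethylene or dehydration elements, 42 rose and 3 fell at least 2-fold (median 1.68, against 1.91 at 2 h). Of 82 NAC genes 27 rose and 0 fell, of 60 WRKY genes 24 rose and 1 fell, and of 102 MYB genes 29 rose and 2 fell as far. Smaller changes ran both ways, with 14 NAC, 10 WRKY and 36 MYB genes called lower, against 52, 44 and 53 called higher (median of the MYB list 0.13). All 8 zinc finger proteins of the ZAT list were called higher and 7 rose at least 2-fold (median 2.92). All 19 heat shock factors were called higher, 9 by 2-fold or more (median 0.95).

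Their leading members had clear signals. DREB2A, an activator of drought genes, had 51381 and 49758 at 5 h, against 1828 and 1821 at 0 h (4.79). ATAF2, a NAC factor, had 106159 and 98842 at 5 h, against 4755 and 4506 at 0 h (4.47). ZAT6, a repressor of the ZAT kind, had 31558 and 33856 at 5 h, against 996.4 and 1049 at 0 h (5.00). In each of these genes both 5 h signals lay far above both 0 h signals.

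Other families held single strong members. WRKY40 rose by 5.08, WRKY18 by 4.89, NAC102 by 4.34, RD26 by 4.33 and MYB15 by 4.30. MYB121 had 2399 and 2492 at 5 h, against 111.2 and 103.0 at 0 h (4.51), and stood at 1.99 at 2 h. BHLH92 was 27.8-fold higher at 5 h by its measured ratio, with a 0 h signal that was not well above background.

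In other families the shares differed. Of 45 bHLH genes 6 rose and 5 fell at least 2-fold. MYC2, the jasmonate factor, rose by 3.19, and PRE1, which promotes elongation, fell by 2.19. Of 55 homeodomain factors 10 rose and 2 fell as far, with HB21 (AT2G18550) at 3.49 and HB-12, which restrains growth in drought, at 3.31. Of 53 TCP, GRF and GATA factors 3 rose and 5 fell, with TCP11 at -1.53 and TCP9 at 2.00. Of 27 B-box proteins, which act in light signalling, 10 rose and 1 fell (median 0.61), with COL1 at 2.85 and BBX32 at 2.72. Of 52 bZIP factors 18 rose and 0 fell, with bZIP6 at 2.96, bZIP1, a sensor of low energy, at 2.67 and ABF3, which binds abscisic acid elements, at 2.43.

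Genes of CCCH zinc fingers and deadenylation were mostly higher. Of 24 measured, many of which act on messenger RNA, 19 were called higher and 10 rose at least 2-fold (median 0.82). SZF1, known from salt stress, had 16764 and 13335 at 5 h, against 2031 and 1690.0 at 0 h (3.01). CAF1a, which shortens poly(A) tails, rose by 2.62, and SOM, a regulator of seed germination, by 2.31 at 5 h, against 0.10 at 2 h. Of 28 small RNA genes 16 were called lower and 9 higher (median -0.20), and 2 fell at least 2-fold, a share of 7.14% beside 7.31% of all genes. SGS3, which with RDR6 makes double-stranded RNA, fell by 1.4 and RDR6 by 0.99. GRP7, an RNA-binding protein that cycles with the clock, had 128525 and 119856 at 5 h, against 224231 and 237980.4 at 0 h (-0.90), and its relative CCR1 (AT4G39260) fell by 1.08.

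Markers of some tissues moved as well. The summed signal of 6 endodermis markers was 2002 and 2116 at 5 h, against 5273 and 5628 at 0 h, and all 6 were lower, from -2.08 for CASP1, which builds the Casparian strip, to -0.67. Of 4 root hair markers, summed at 540 and 554 at 5 h, against 1063 and 1096 at 0 h, 4 were above background at 0 h and 2 at 5 h. The 6 embryo and seed markers summed to 1153 and 1140 at 5 h, against 21802 and 21306 at 0 h, and on the first array CRA1 and CRU3 gave 10307 and 8908 of the 0 h sum. The phloem markers SUC2 and APL summed to 16614 and 17060 at 5 h, against 7293 and 7453 at 0 h, nearly all of it from SUC2, which loads sucrose into the phloem and rose by 1.28. Leaf mesophyll markers hardly shifted, with a sum of 687803 and 677719 at 5 h, against 661763 and 652809 at 0 h, and all 6 above background, although CA1, a carbonic anhydrase, fell by 1.1. The 4 root tip markers summed to 478 and 520 at 5 h, against 354 and 384 at 0 h, with 2 above background at each time. Of these markers WOX5 rose by 1.22. PLT1 and PLT2 were dim at both times, with a 5 h signal not well above background. PLT1 had 66.9 and 76.4 at 5 h, against 84.9 and 88.2 at 0 h, and PLT2, not called, had 84.8 and 90.6, against 80.9 and 90.7. Whether the share of these cells in the samples differed, and its part in the wall, meristem and seed results, was not tested.

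The longer tissue lists showed the same members in more depth. Of 19 root hair genes 8 fell and 1 rose at least 2-fold (median -0.76), with RHS13 at -1.83 and PRP3 at -1.59. Of 22 endodermis and stele genes 14 were called lower and 5 higher (median -0.42), with SUC2 among the higher, and HAK5, a potassium importer of roots, fell by 1.37. Of 18 embryo and seed genes 10 fell and 3 rose at least 2-fold (median -1.42), with PER1, a seed peroxiredoxin, at -2.59 and M10, a late embryogenesis protein, at 3.24. Guard cell and mesophyll lists of 19 and 14 genes had medians of -0.20 and -0.07.

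A direct difference between 5 h and 2 h shows what was still moving. Both times carry the same 0 h sample, and the contrast was fitted over all 4 arrays. It called 6849 genes (33.7%) higher and 7935 (39.0%) lower at 5 h, and by 2-fold or more 884 (4.35%) higher and 701 (3.45%) lower. Of the genes that had changed 2-fold at 5 h, 1200 that were higher and 1169 that were lower had not reached 2-fold at 2 h. At 2 h itself 1990 genes (9.79%) were at least 2-fold higher and 476 (2.34%) lower.

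The growth and plastid lists were lower at 5 h than at 2 h. Of the 26 DNA replication genes 21 were called lower at 5 h, of the 35 mitotic genes 29, of the 22 core histones 19, of the 27 plastid ribosomal proteins 25 and of the 43 photosystem genes 37. Their median differences were -0.85, -0.90, -0.76, -0.42 and -0.37, beside -0.03 for all genes. HTA11 stood at -1.92 at 5 h and -0.15 at 2 h, a difference of -1.76 ± 0.0480 (SE, n = 2 arrays each). CDC20.1 differed by -1.95 ± 0.0603.

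Recycling and breakdown lists, and the list of UGT glycosyltransferases, were higher at 5 h than at 2 h. Of 23 autophagy genes 20 were called higher and 0 lower, of 24 beta-oxidation genes 19 and 2, of 20 amino acid breakdown genes 12 and 4, and of 57 UGT genes 40 and 13. Their median differences were 0.40, 0.56, 0.66 and 0.75. BCAT-2 differed by 3.18 ± 0.0509 and ATG8H by 1.66 ± 0.0595.

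Single genes changed direction between the times. LTP3, a lipid transfer protein, had 100629 and 99621 at 5 h, against 10448 and 10216 at 0 h, and stood at 3.28 at 5 h and -1.66 at 2 h, a difference of 4.94 ± 0.0484. LTP4, its neighbour and close copy, stood at 2.73 and -1.76. SAG29, the sugar exporter SWEET15 of senescence, had 13235 and 13857 at 5 h, against 2596 and 2596 at 0 h, and stood at 2.38 at 5 h and -1.8 at 2 h. AT3G17520, a late embryogenesis protein gene, stood at 2.42 and -1.5. In all, 12 genes were 2-fold higher at 5 h and 2-fold lower at 2 h, and 1 was the reverse.

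Other genes were also higher at 5 h than at 2 h. AT3G02480, a late embryogenesis protein gene, had 97641 and 96681 at 5 h, against 5101 and 5011 at 0 h, and stood at 4.26 at 5 h and 0.47 at 2 h. AT3G59930 and AT5G33355, small defensin-like genes, stood at 4.25 and 4.32 at 5 h, against 0.29 and 0.53 at 2 h. DIN2, a beta-glucosidase of darkness and sugar starvation, stood at 3.11 at 5 h and -0.29 at 2 h, and AT1G68570, a transporter gene of the nitrate and peptide family, at 2.52 and -0.89.

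Late falls were as clear. ADS1 stood at -3.40 at 5 h and 0.24 at 2 h, a difference of -3.64. AT5G03350, a lectin-like gene, had 227.1 and 197.3 at 5 h, against 2524 and 2064 at 0 h, and stood at -3.43 at 5 h and 0.01 at 2 h. PAP14, a purple acid phosphatase, stood at -3.19 at 5 h and -0.32 at 2 h, and AT2G41090, a calmodulin-like gene, at -2.58 and 0.59. PCC1, EXPA8, GASA6, XTH31 and AT5G02760 made up the rest of the 10 lowest differences with TPS04. TPS04 was not lower than at 0 h: its measured ratios stood at 1.91 at 5 h and 4.88 at 2 h. Its 0 h signal was not well above background.

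Genes that changed lay side by side in 9 places. A run was taken as at least 3 neighbours in the order of the gene table, all measured and all called at least 4-fold in 1 direction. Of 9 runs with 28 genes, 7 were higher and 2 lower. On chromosome 1, IAR3 and ILL5, which free auxin or jasmonate from amino acids, stood at 2.77 and 2.72. Between them AT1G51770, not well above background at 0 h, was at least 8.90-fold higher, a bound close to its measured 8.97-fold. On chromosome 5, KIN1 and KIN2, cold-induced protective proteins, stood at 4.4 and 3.52 beside AT5G15950, of polyamine synthesis, at 2.90. The genes AT2G32190, AT2G32200 and AT2G32210 stood at 2.59, 2.40 and 2.37.

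Further runs lay on chromosomes 3, 4 and 5. LTP4, LTP3, AT5G59330 and WOX2, an embryo homeobox gene, stood at 2.73, 3.28, 2.14 and 2.63 at 5 h, against -1.76, -1.66, -0.53 and 0.63 at 2 h. AT3G03990, AT3G04000 and AT3G04010 rose by 2.07, 4.46 and 3.47. AT4G15660, AT4G15670 and AT4G15680, of the glutaredoxin family, rose by 2.45, 2.52 and 2.83. BOA, a clock factor, stood at 2.42 beside UGT76E1, which was at least 6.40-fold higher, and UGT76E2 at 3.03.

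The 2 lower runs belonged to auxin response and triterpenes. SAUR63, AT1G29450 and AT1G29460, small auxin-induced genes, stood at -2.59, -2.68 and -3.26. CYP705A5, CYP708A2 and THAS1, a metabolic cluster that makes thalianol in roots, stood at -2.03, -2.66 and -2.07. Among protein-coding genes alone, an order chosen after seeing the data, 3 further runs appeared. They were AT2G36630 with ECP63 and AT2G36650, AT2G36770 with AT2G36780, UGT73C6 and DOGT1, and CBF2 with DREB1A and CBF1, cold-response activators at 3.39, 2.92 and 4.50. Members of most runs are tandem copies whose probes may share sequence, so single genes in them are uncertain.

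**Figure D5:**
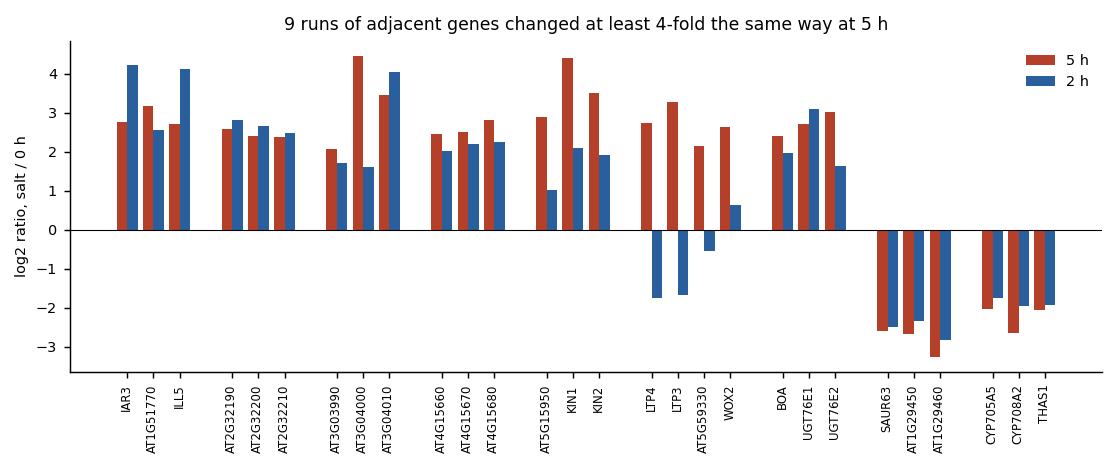
Bars show the mean log2 ratio over 0 h at 5 h (left of each pair) and at 2 h (right) for the 28 genes of the 9 runs, grouped by run. In the run of LTP genes the 5 h bars reach 2.14 to 3.28, and the 2 h bars lie between -1.76 and 0.63.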

How the data were processed

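RNA of whole seedlings was measured on 4 two-colour Agilent arrays of 1 slide. Per the labels, NaCl samples were in Cy5 and the 0 h sample in Cy3. The authors deposited scanner output with linear spot intensity in each channel and a log10 ratio of processed signals, made with Agilent Feature Extraction (11.5.1.1 per the file headers, 9.3.2.1 per the submitters' processing notes), and a series table of log2 ratios. Genes were named through the array's probe annotation.

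From the median intensities, limma 3.58.1 in R 4.3.3 corrected background (normexp, offset 50) and normalized each array by loess (span 0.3, control spots at weight 0). Printed signals were further equalised across channels (Aquantile). The offset shrinks the changes of dim probes. Of 43603 probes, 34348 had 1 gene. In all 32354 probes, 4158 of them without a single gene, were kept as well above background in Cy3 or Cy5 on both arrays of a time. The brightest kept probe stood for its gene, giving 20333 genes. One linear model over all 4 arrays held a coefficient for 5 h and for 2 h, each tested against 0, and their difference, with Benjamini-Hochberg adjustment. It was tested on simulated data. The number of arrays limits the precision, with 2 residual degrees of freedom a gene.

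The genes and lists were chosen with earlier results of these data known. Genes were named by rule, as the 15 largest rises and falls, the 4 largest changes of each list, the 10 highest and lowest differences between times, members of runs and tissue markers. Alternatives were other background corrections, normalizations, filters, gene summaries, the series table, a block and arrays left out.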

Additional observations from a re-analysis of the deposited data

Results flagged for a closer look

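LTP3, LTP4, SAG29 and AT3G17520 were at least 2-fold higher at 5 h and at least 2-fold lower at 2 h, both over the same 0 h sample. The difference of 5 h minus 2 h, tested by limma over all 4 arrays, was 4.94 for LTP3 (adjusted p = 9.93e-09), 4.49 for LTP4 (adjusted p = 1.59e-08), 4.19 for SAG29 (adjusted p = 1.59e-08) and 3.92 for AT3G17520 (adjusted p = 2.96e-08). In all 4 genes both 5 h arrays were above 0, but this adds no support. The genes were picked for their change, and both arrays shared a direction in all 4259 genes changed at least 2-fold at 5 h.

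Probes without a single gene name were left out of all gene counts. Of 4158 that passed the filter, 405 (9.74%) were at least 2-fold higher at 5 h and 180 (4.33%) lower, and 27 and 3 changed at least 8-fold. The largest rise was 4.46 ± 0.0366 (SE, n = 2 arrays), with 4.45 and 4.47 on the arrays, against 4.36 at 2 h. The largest fall was -4.27 ± 0.0429, with -4.28 and -4.26 on the arrays, against -4.89 at 2 h. By limma the adjusted p was 4.27e-10 for the rise and 5.92e-10 for the fall, and both probes were above background in both channels.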

How the results depend on the processing

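The counts of called genes and of 2-fold rises stayed within 1.5 times of the reported ones under every alternative run. Other counts moved with the Feature Extraction ratio, the series table and scaling, and the cause was not tested. Genes at least 2-fold lower, 1486 as reported, came to 3106 with the Feature Extraction ratio, 2673 in the deposited series table and 913 with arrays scaled to a common spread. Genes at least 8-fold higher, 314 as reported, came to 620, 673 and 154, and those at least 8-fold lower, 22 as reported, to 131, 110 and 7 in the same order. Rises made up 50.3% of the called genes, against 42.8% with the ratio of Feature Extraction, under which all genes had a median of -0.13. Of 1036 list medians under the alternatives 42 moved by over 0.2, and 0 of those of 0.3 or more in size changed sign. Leaving out 1 array gave 16687 to 18137 called genes and 4225 to 4283 changed 2-fold.

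The 5 h and 2 h arrays share replicate numbers, but these give only 2 pairs, whose array deviations correlated at 0.061, so they were not taken as pairs. With the replicate number as a block, 17955 genes were called at 5 h, against 17873 without it, and 15022 in 5 h minus 2 h, against 14784. The 2-fold counts at 5 h were the same, since in this balanced design the block leaves a gene's mean change as it is where no value is missing. Fitting the 5 h arrays alone or leaving out a 2 h array also leaves the 5 h change as it is. These settings therefore do not test the size of a change. The 260 genes named with a change gave 3633 values under the alternatives, these settings included, and each kept its direction and its side of the threshold. Most of these genes were named for the size of their change in the same data, so this was largely fixed by that choice.

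A slide or scan block was not run, since all arrays lay on 1 slide, and promoter motif shares were not run, since no promoter sequences were used here. Depth limits dim probes: 132 of the 2-fold rises were not well above background at 0 h, and 42 of the 2-fold falls were not at 5 h.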

Other observations

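Transcripts of seed proteins did not all move one way. EM1 and RAB18, late embryogenesis proteins that protect drying cells, stood at 2.38 and 2.53 at 5 h, against 0.07 and -0.64 at 2 h. The oil body protein OLEO1, of seed oil storage, stood at -2.06 at 5 h, against -2.80 at 2 h. EM1, RAB18 and OLEO1 were chosen after their values were seen.

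Some further groups are set beside the 13.6% rises and 7.31% falls of all genes. Of 28 nuclear factor Y subunits, which bind CCAAT boxes, 6 rose (21.4%) and 2 fell (7.14%) at least 2-fold, with NF-YC2 at 1.4 and NF-YC12 at -1.15. Of 24 phospholipases C and D, which make lipid signals, 5 rose (20.8%) and 0 fell as far, led by PLDP2 at 2.12. Of 11 class III peroxidases of the wall 2 rose and 2 fell (18.2% each), with PRX52 at 1.62 and PER64 at -1.53. Of 27 splicing and glycine-rich RNA-binding genes 0 rose and 2 fell (7.41%) as far. Of 6 root cap and root tip genes 1 rose (16.7%), WOX5 of the stem cell niche at 1.22.

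Where a gene had more than 1 kept probe, the probes were compared by size, and agreement in direction alone was not counted. Of 6056 such genes, 1 had probes on opposite sides by 2-fold each. Most genes changed by less than 2-fold, so this count says little on direction. Of 1330 such genes changed 2-fold at 5 h, 835 had every kept probe past 2-fold in that direction. Of 89 genes named in the text with more than 1 kept probe and a 2-fold change, 14 had a kept probe within 2-fold.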
